A study of Mus musculus with 4 samples.

Results

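Cells high in Col10a1, a gene of hypertrophic chondrocytes, and low in the Ptgs2, Pde11a and Loxl4 program were drawn from 4 single-cell RNA-seq libraries. The libraries were of mouse long bone, 2 from Lats2iECKO mice and 2 from controls. A cell was taken where a barcode held at least 1000 unique molecular identifiers (UMIs, the tags that count captured RNA molecules) over at least 800 genes, with under 15% mitochondrial and under 5% alpha- and beta-globin UMIs. Of these, members had at least 20 Col10a1 UMIs per 10000, no UMI of Cdh5 or Ptprc, under 200 Bglap UMIs per 10000, and at most 2 UMIs of Ptgs2, Pde11a and Loxl4 together. The rule found 321 of 24739 cells, namely 102 and 125 in the mutant libraries and 38 and 56 in the controls.

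The mutants carried Lats2 alleles flanked by loxP sites and the tamoxifen-inducible Cdh5(PAC)-CreERT2 transgene, whose promoter is active in endothelial cells, so the chondrocytes themselves were not the targeted cells. The controls were littermates without Cre that, by the study's methods, also received tamoxifen although their label calls them untreated. All mice were 12 weeks old and of mixed sex, on a C57BL/6 background with a Cdh5-driven reporter. The cells came from the metaphysis region dissected from femur and tibia, after collagenase digestion and depletion of blood lineage cells. Shares of cells therefore describe that dissected region and the recovered suspension. Lats2, at chr14:57926960-57995845 of GRCm39, was counted at 36.1 and 41.4 counts per 1000000 summed UMIs of the members in a library (CPM) in the mutant members and at 33.9 and 37.5 CPM in the control members. The groups overlapped (log2 fold change of mutant over control 0.13, SE 0.259, edgeR adjusted p = 0.823). Lats1, its paralog, stood at 25.6 and 28.7 against 35.0 and 31.8 CPM and did not pass the test (-0.25, SE 0.276, adjusted p = 0.668). In endothelial cells (at least 2 Cdh5 UMIs) Lats2 stood at 90.2 and 94.4 CPM in mutants and at 127 and 116 CPM in controls, counted over the whole gene, deleted part or not.

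Chondrocytes of the growth plate stop dividing, enlarge and secrete type X collagen, the product of Col10a1, before they mineralize their matrix and are resorbed or become bone-forming cells. Indian hedgehog (Ihh) marks the entry into this state, and vascular endothelial growth factor (Vegfa) its later steps, when vessels invade from the metaphysis. The growth plate lacks vessels, and its cells depend on hypoxia-inducible factor (HIF), a transcription factor that is degraded in the presence of oxygen and that turns on glycolysis and oxygen-sensing genes. The comparison asks how Col10a1-high cells with few transcripts of the late program differ between a bone with an altered endothelium and a control bone.

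The members were not all alike, and further markers of hypertrophic chondrocytes were counted in only some of them. A split made after the data were seen, on the cartilage genes Col2a1, Acan and Col9a1 (at least 20 UMIs per 10000 together) and on Prg4, which encodes lubricin of joint surfaces (limit of 20 per 10000), gave 3 portions. The Prg4-low cartilage portion held 181 cells (61 and 63 in mutants, 27 and 30 in controls). The Prg4-high cartilage portion held 71 cells (19 and 20, and 9 and 23). Another 69 cells were poor in cartilage genes, of which 64 came from the mutants (22 and 42) and 5 from the controls (2 and 3). An Ihh UMI was present in 106 of the 181 Prg4-low cells, in 0 of the 71 Prg4-high cells (which allows 3 cells or 4.23% with such a UMI, not a limit on cells that express the gene) and in 6 of the 69 cells poor in cartilage genes. Slc38a4, an amino acid transporter of the hypertrophic list, and Panx3, a channel of hypertrophic chondrocytes, were also at 0 in all 4 libraries of the Prg4-high portion, where Prg4 itself stood between 31142 and 42817 CPM. These 3 markers were thus not counted in the Prg4-high portion, which held Col10a1 by the rule. Beyond Col10a1, the name hypertrophic chondrocyte was borne out mainly by the Prg4-low portion. Most main results are given for all members and for the Prg4-low portion. In all, 59 members lay between 10 and 40 cartilage UMIs per 10000 and 11 between 10 and 40 Prg4 UMIs per 10000, close to the limits.

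**Figure D1:**
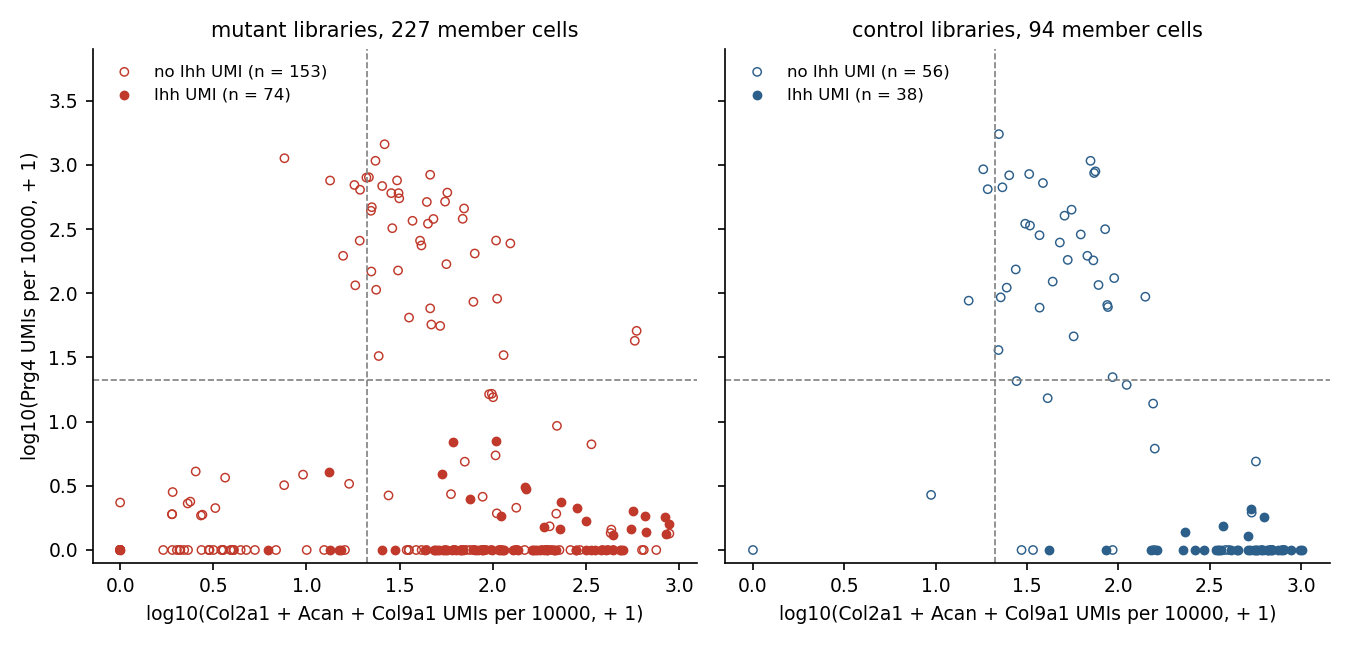
Each point is a member cell; the x axis is log10 of Col2a1, Acan and Col9a1 UMIs per 10000 plus 1, the y axis log10 of Prg4 UMIs per 10000 plus 1, and dashed lines mark 20 per 10000 on each. Filled points (cells with an Ihh UMI, 74 of 227 mutant and 38 of 94 control cells) all lie below the Prg4 line, and the lower left corner is nearly empty in the controls.

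Many mutant cells poor in cartilage genes carried genes of mural cells, the contractile cells around vessels. Rgs5, Pdgfrb, Acta2 and Tagln together reached 5 UMIs per 10000 in 14 of 22 and 27 of 42 of them in the mutants. Rgs5 stood there at 1354 and 2644 CPM, against 1.62 and 29.1 CPM in the Prg4-low mutant cells, and 1 of the 5 control cells poor in cartilage genes carried them too. These cells were mixed, since 11 of the 69 reached the Prg4 limit and the 4 superficial chondrocyte markers summed in them to 23185 and 4333 CPM in mutants and 15366 and 74761 CPM in controls. The 6 smooth muscle and pericyte markers summed there to 2604 and 3384 against 5598 and 41.5 CPM and the 8 marrow stromal markers to 765 and 503 against 988 and 6393 CPM, where the control values rest on 2 and 3 cells. Over all members 13.7% and 23.2% of mutant cells reached this level, against 5.26% and 0% of control cells (0 of 56, which allows 3 cells or 5.36%). The list of 6 smooth muscle and pericyte markers summed to 435 and 833 CPM in mutant members and to 120 and 10.1 CPM in control members, and in the Prg4-low portion to 12.9 and 47.4 against 2.77 and 7.97 CPM, with 2 of the 6 at 0 in all 4 libraries. The 10 hematopoietic markers summed to 80.2 and 99.9 against 2.19 and 1.44 CPM in all members and to 12.9 and 16.8 against 2.77 and 0 CPM in the Prg4-low portion. The part of such cells in a result over all members was not tested, and Prg4-low values are given beside most of the main ones.

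The shares of the cells poor in cartilage genes and of Prg4-high cells did not overlap between the genotypes, and that of Prg4-low cells did. The cells poor in cartilage genes made up 27.6% ± 8.51 (SD, n = 2) of mutant and 5.31% ± 0.0665 of control members. Prg4-high cells made up 17.3% ± 1.86 and 32.4% ± 12.3, and Prg4-low cells 55.1% ± 6.65 and 62.3% ± 12.4. With 2 libraries a genotype the exact two-sided permutation test cannot go below p = 0.333, so no share can pass a threshold in that test. Intervals cover counting error only.

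Members were 1.99% and 2.12% of all cells in the mutants and 0.553% and 0.819% in the controls, 2.05% ± 0.0932 against 0.686% ± 0.188 (SD, n = 2, exact permutation p = 0.333). The Prg4-low portion alone was 1.13% ± 0.0851 of mutant and 0.416% ± 0.0322 of control cells, so the genotypes did not overlap by either count. Among Col10a1-high cells, which are the members and the late cells that meet the same rule but hold at least 3 UMIs of Ptgs2, Pde11a and Loxl4, the order was the other way round. Members were 15.1% of 675 and 18.1% of 690 such cells in the mutants (95% exact intervals 12.5-18.0% and 15.3-21.2%), and 24.2% of 157 and 33.1% of 169 in the controls (17.7-31.7% and 26.1-40.8%). This share moves with depth because the rule sets a number of UMIs. Late cells had a median of 9687 and 9109 UMIs in mutants and 17409 and 17693 in controls, and with each cell thinned to 4000 UMIs and the rule applied again the members (187, 191, 115 and 126 cells) were 30.9% and 30.5% of Col10a1-high cells in the mutants and 74.7% and 74.6% in the controls.

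**Figure D2:**
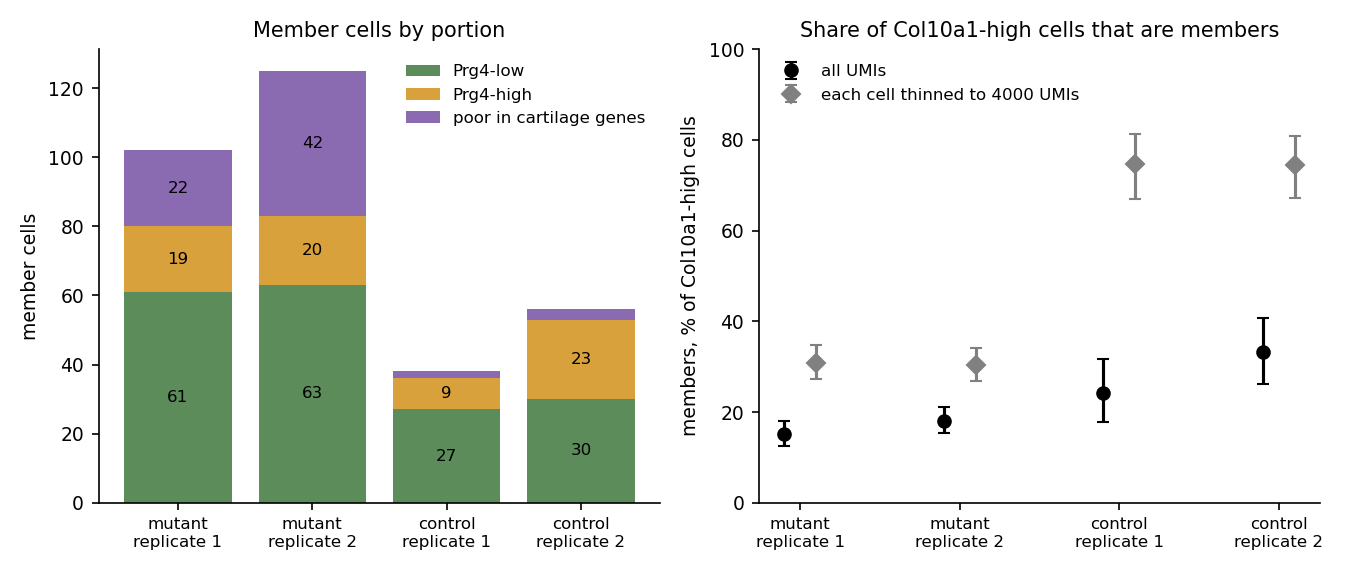
Left, member cells per library (y axis, number of cells) by portion; right, members as a percentage of Col10a1-high cells with exact 95% binomial intervals, from all UMIs (black) and after thinning each cell to 4000 UMIs (grey). The purple block of cells poor in cartilage genes is 22 and 42 cells in mutants and 2 and 3 in controls, and at each depth both controls lie above both mutants.

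A member had a median of 9066.5 and 8822 UMIs in the mutant libraries and of 10394 and 10635.5 in the control libraries, but in the Prg4-low portion the medians were 7159 and 6746 against 11750 and 12375.5. Mitochondrial UMIs took a median of 2.40% and 1.49% in mutant and 4.47% and 4.52% in control Prg4-low cells. The part of depth and of mitochondrial share in the results was not tested. Thinned values of genes, gene lists and shares of members are given for some of them, but there the rule was applied again after thinning, which takes in cells that count as late at full depth, so they describe a wider set. The libraries held 69636600 to 85899079 UMIs in all, shared at most 16 cell barcodes in any pair and none among members, and a doublet caller marked 19 members, which were kept. Barcodes under 100 UMIs, which sample free RNA, held Col10a1 at 3874 and 3872 CPM in mutants and 1442 and 1353 CPM in controls, and such RNA was estimated at 1.20% to 1.25% of member UMIs.

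The members were chosen by their Col10a1, Cdh5, Ptprc, Bglap and late gene UMIs, so these values are a description and were not tested. Col10a1, a collagen of hypertrophic cartilage, stood at 8047 and 7668 CPM in mutant and at 11849 and 9514 CPM in control members, with medians per cell of 51.9, 51.6, 57.5 and 62.2 UMIs per 10000. Just inside the limit 41 members had 20 to 25 Col10a1 UMIs per 10000, and 56 cells that met every other condition had 15 to 20. Of the members 177 had no UMI of the late genes and 70 had the full 2, and 83 cells with 3 fell just outside.

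Of the 6230 genes tested between genotypes in all members, 145 were higher in mutants (2.33%) and 101 lower (1.62%) with a fold of 2 or more either way (1 on the log2 scale) and an adjusted p no higher than 0.05. Without control replicate 2 there were 244 higher and 173 lower, and without mutant replicate 1 240 higher. In the Prg4-low portion 236 of 5662 genes were higher (4.17%) and 129 lower (2.28%). A gene was tested if counted in 20% of the cells of either genotype, so some genes entered through 1 genotype: 65 of the 145 higher genes (84 of 236 in the Prg4-low portion) reached that share in mutants alone, and 44 of the 101 lower (55 of 129) in controls alone. Without mutant replicate 1 edgeR called no gene in the Prg4-low portion (816 had an unadjusted p under 0.05), while leaving out another library gave between 204 and 357 higher and between 113 and 169 lower genes, and DESeq2 on all 4 gave 130 and 68. For gene lists the adjusted p alone was used, a limit that 2.74% of genes passed upward and 2.01% downward in all members, and 5.78% and 3.21% in the Prg4-low portion. The median log2 fold change over all genes was -0.00098 in all members and 0.0066 in the Prg4-low portion.

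Among 19 genes of the hypertrophic zone, all tested, with Col10a1 left out because it chose the members, Vegfa rose and 8 fell: Panx3, Pth1r, Runx2, Mef2c, Sp7, Alpl, F13a1 and Slc38a4. The same 8 fell in the Prg4-low portion, and the list median was -0.74 in all members and -0.51 there. In all members 2 of the 8 entered the test through the controls only, so their calls are not independent of the detection filter. Among genes that passed this filter in both genotypes, 6 of 15 fell in all members (median -0.32). In the Prg4-low portion 8 of 17 such genes fell (median -0.41). Ihh, at chr1:74984474-74990837, stood at 232 and 273 CPM in mutants and 269 and 128 CPM in controls, with the groups overlapping (0.41, SE 0.293, edgeR adjusted p = 0.493, -0.021 without control replicate 2, and 0.996 with adjusted p = 0.0235 without control replicate 1). Its Prg4-low level was 412 and 489 against 341 and 237 CPM (0.71, SE 0.2, adjusted p = 0.054). An Ihh UMI was seen in 32.4% and 32.8% of mutant and 44.7% and 37.5% of control members, against 0.803% to 2.64% of endothelial cells, which should lack the gene and had a median of 6312 to 7802 UMIs. Late cells had one more often, in 80.8% and 75.4% of mutant and 91.6% and 89.4% of control cells. Their median depth was 9687 and 9109 UMIs in mutants and 17409 and 17693 in controls. Of the members deep enough to be thinned to 4000 UMIs (76, 95, 33 and 50 cells) an Ihh UMI was left in 21.1% and 24.2% against 36.4% and 24.0%, and the genotypes overlapped. Of Prg4-low members 50.8% and 58.7% had an Ihh UMI in mutants and 63.0% and 70.0% in controls at full depth, where the mutant cells were the shallower. With 2 libraries a genotype an exact permutation test cannot go below p = 0.333, the value for the Prg4-low share, where the genotypes did not overlap.

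F13a1, at chr13:37051152-37234277, encodes the A subunit of the cross-linking enzyme factor XIII. It stood at 451 and 508 CPM in mutants and at 2262 and 1244 CPM in controls, and both mutants were far below both controls (-1.83, SE 0.252, adjusted p = 0.0058). In the Prg4-low portion the values were 709 and 849 against 2824 and 1890 CPM (-1.52, SE 0.188, adjusted p = 0.0013). Slc38a4, at chr15:96892693-96958593, was low throughout, at 28.9 and 20.1 CPM in mutants against 80.9 and 62.1 CPM (-1.49, SE 0.286, adjusted p = 0.0236, and -1.24 with adjusted p = 0.0682 without mutant replicate 2). Its Prg4-low levels were 53.3 and 38.2 against 102 and 114 CPM (-1.18, SE 0.286, adjusted p = 0.0317).

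Of 19 tested chondrocyte transcription factors 3 fell in all members, Runx2, Mef2c and Sp7, and none rose. Of these 3, 1 reached 20% of cells in the controls alone. Runx2, which drives hypertrophy and bone formation, was counted at 287 and 266 CPM in mutants against 1111 and 447 CPM (-1.45, SE 0.344, adjusted p = 0.0484), and the spread between the controls was wide. Its adjusted p was 0.0606 with a stricter cell filter, 0.0551 without called doublets and 0.116 with a Col10a1 limit of 40. Mef2c, which activates Col10a1 and Runx2, stood at 535 and 558 against 1588 and 1119 CPM (-1.27, SE 0.186, adjusted p = 0.00731). Sp7, which encodes osterix, stood at 28.1 and 20.1 against 107 and 66.4 CPM (-1.77, SE 0.310, adjusted p = 0.0167). These 3 also fell in the Prg4-low portion (-1.25, -1.09 and -1.59), where Nfatc1 and Nfatc2 rose. Nfatc2 reached 20% of cells there in the mutants alone, so its call is not independent of that filter. Sox9, the master regulator of chondrocytes, did not pass the test (588 and 619 against 575 and 751 CPM, -0.11, SE 0.176, adjusted p = 0.779). Of 10 tested hedgehog and PTHrP genes only Pth1r, the receptor through which PTHrP holds back hypertrophy, passed, at 1093 and 833 against 2551 and 1686 CPM (-1.10, SE 0.220, adjusted p = 0.0273, and -0.91 with adjusted p = 0.0665 without mutant replicate 2).

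**Figure D3:**
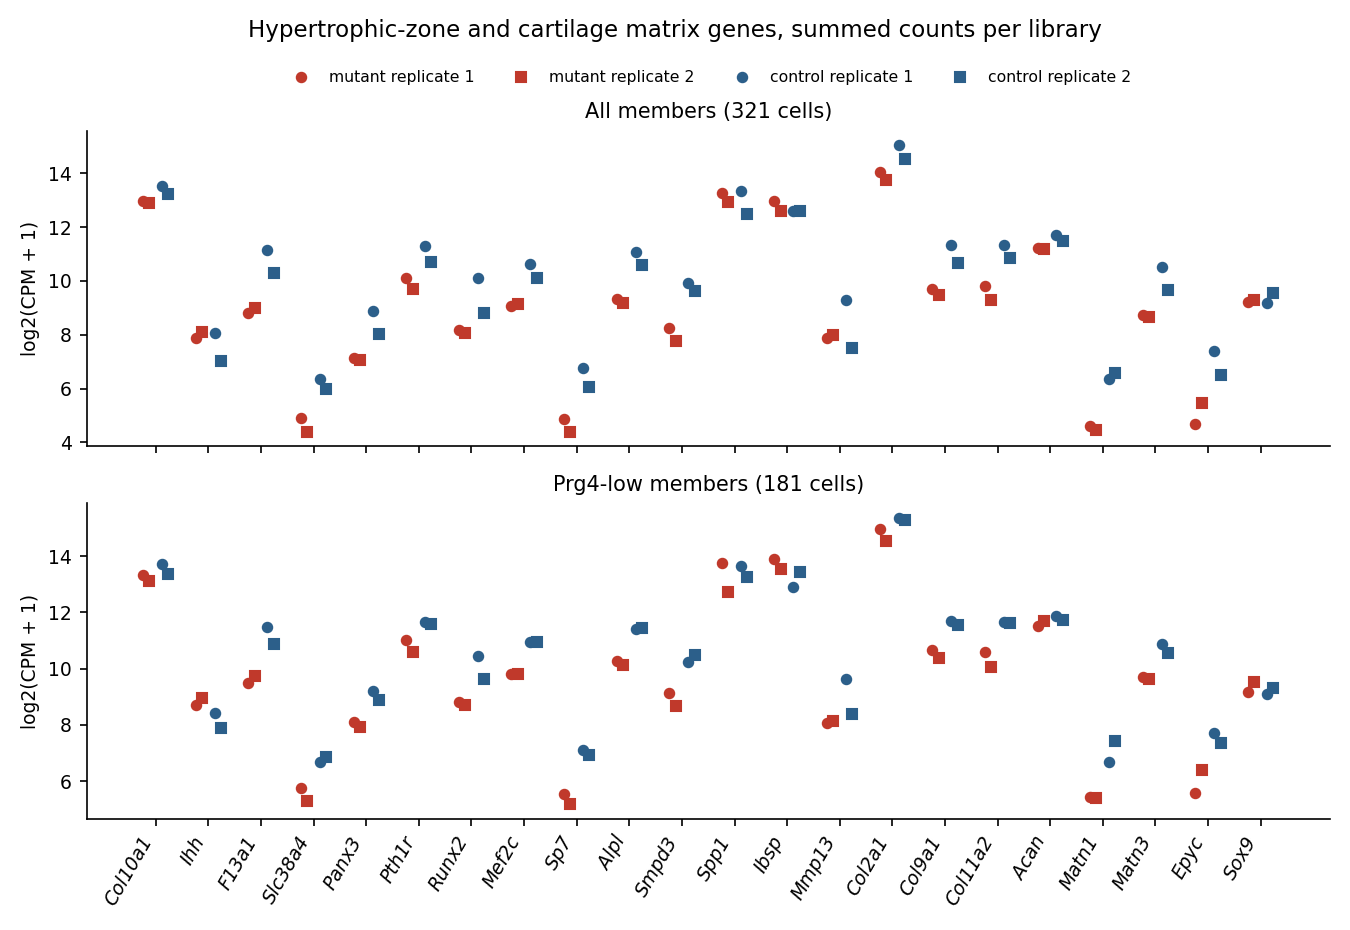
Levels of hypertrophic zone and cartilage matrix genes as log2(CPM + 1) on the y axis, one point per library (red mutants, blue controls, circles replicate 1, squares replicate 2), over all members (top) and Prg4-low members (bottom). F13a1, Alpl, Runx2 and Col11a2 have both mutants below both controls in each panel, while Ihh, Spp1 and Sox9 overlap in the top panel.

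Genes of mineralization moved apart from each other. Alpl, the phosphatase that frees phosphate for mineral, stood at 640 and 585 CPM in mutants and 2144 and 1533 CPM in controls (-1.55, SE 0.186, adjusted p = 0.0037), and in the Prg4-low portion at 1231 and 1128 against 2699 and 2815 CPM (-1.16, SE 0.142, adjusted p = 0.0013). Smpd3, a sphingomyelinase needed for mineral, stood at 307 and 219 against 974 and 794 CPM (-1.71, SE 0.209, adjusted p = 0.0037). Both enzymes were lower in each mutant library than in each control, as 27.4% of all genes tested were. Mgp, an inhibitor of calcification, stood at 15105 and 13871 CPM against 3971 and 5688 CPM (1.62, SE 0.187, adjusted p = 0.00331), but its highest levels, 34748 and 40701 CPM, were in the mutant cells poor in cartilage genes, and its change was 0.21 (adjusted p = 0.492) after thinning and 0.83 (adjusted p = 0.16) with cartilage genes required. Its Prg4-low values of 16239 and 6420 against 4432 and 1547 CPM also kept the genotypes apart (2.01, SE 0.470, adjusted p = 0.0259). Of 14 tested mineralization genes Mgp rose and Alpl, Smpd3 and Bglap2 fell, Bglap2 not without mutant replicate 2 (-0.98, adjusted p = 0.0971) or in the Prg4-low portion (-0.83, adjusted p = 0.104). Spp1 (osteopontin, 0.18, adjusted p = 0.738) and Ibsp (bone sialoprotein, 0.24, adjusted p = 0.459) did not pass.

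Of 25 cartilage matrix genes tested 13 fell and none rose, with a median of -0.85, and in the Prg4-low portion 12 of 23 fell, with a median of -0.56. The fibril collagens and their partners made up most of these. In each fit 2 of the falling genes entered the test through the controls only, so their calls are not independent of the detection filter. Among genes that passed this filter in both genotypes, 11 of 21 fell in all members (median -0.72). In the Prg4-low portion 10 of 19 such genes fell (median -0.53). Col9a1 stood at 840 and 706 CPM in mutants and 2603 and 1630 CPM in controls (-1.42, SE 0.221, adjusted p = 0.0101). Col11a2 stood at 892 and 634 against 2599 and 1833 CPM (-1.50, SE 0.222, adjusted p = 0.00752). Their Prg4-low changes were -1.01 and -1.21, both past the limit. Matn1, a matrilin, was low at 23.1 and 20.9 against 80.9 and 93.8 CPM (-1.97, SE 0.246, adjusted p = 0.0041), but did not pass after thinning (-1.03, adjusted p = 0.0683) or with a Col10a1 limit of 40 (adjusted p = 0.0682). Fxyd2, which encodes a regulator of the sodium pump, stood at 408 and 427 against 1383 and 941 CPM (-1.44, SE 0.196, adjusted p = 0.00572). The main collagen, Col2a1, passed in all members (17202 and 13867 against 33897 and 23458 CPM, -0.85, SE 0.191, adjusted p = 0.0406) and not in the Prg4-low portion (-0.49, SE 0.141, adjusted p = 0.0589). Acan, the core protein of aggrecan, did not pass in either (-0.37, adjusted p = 0.204, and -0.11, adjusted p = 0.679). Because Col2a1, Col9a1 and Acan set the portions, their Prg4-low values are partly fixed by that choice.

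Genes linked to HIF were mostly higher in the mutants. Of 18 tested, 10 rose and Car12 fell in all members (median 1.09). Of 19 tested in the Prg4-low portion 14 rose and Car12 fell (median 2.00, the same with the 2 genes absent from controls put at their bound). Egln3 and Ankrd37, and in the Prg4-low portion Ndrg1 and Adm as well, entered the test through the mutants only, so their calls are not independent of that filter. Car12 entered through the controls only in both fits, and the same holds for its fall. Among genes that reached 20% in both genotypes, 8 of 15 rose in all members (median 1.09) and 10 of 14 in the Prg4-low portion (median 1.70), and none fell. Leaving out mutant replicate 1 from the Prg4-low fit left none past the limit but a median of 2.16, and leaving out another library gave 13 or 14 rising genes, where 4.31% to 7.28% of all genes passed upward. Egln1 and Egln3 encode prolyl hydroxylases that mark HIF for degradation and that HIF itself turns on, and the sequence before each start is shown because both moved with the list. The 250 bases upstream of the GENCODE M39 canonical start, on the coding (minus) strand of GRCm39 and clear of annotated exons, are at chr8:125676866-125677115 for Egln1 and chr12:54250674-54250923 for Egln3, with capitals for each match to ACGTG, the core of the HIF binding motif, on either strand.
Egln1: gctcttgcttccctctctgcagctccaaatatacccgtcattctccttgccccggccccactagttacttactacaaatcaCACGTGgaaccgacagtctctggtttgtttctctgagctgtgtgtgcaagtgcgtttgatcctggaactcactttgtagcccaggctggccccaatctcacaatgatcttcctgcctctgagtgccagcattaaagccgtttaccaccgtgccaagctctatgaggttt
Egln3: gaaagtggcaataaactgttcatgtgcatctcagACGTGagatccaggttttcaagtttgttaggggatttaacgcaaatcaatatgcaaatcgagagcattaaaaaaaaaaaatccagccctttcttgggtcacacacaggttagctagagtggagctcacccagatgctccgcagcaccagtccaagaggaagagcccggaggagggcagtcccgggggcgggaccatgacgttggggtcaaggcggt
The 2 matches of Egln1 are the same letters read on both strands and overlap, and Egln3 has 1 match. Such a match occurs in 17.0% of the windows of 21751 protein-coding genes and in 10 of the 20 listed genes, 7 of them among the 14 that rose. A match is a description of the letters, not evidence of binding.

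Egln1 stood at 210 and 234 CPM in mutants and at 54.7 and 73.6 CPM in controls (1.79, SE 0.215, adjusted p = 0.0037), and in the Prg4-low portion at 276 and 326 against 49.8 and 58.5 CPM (2.53, SE 0.232, adjusted p = 0.000385). Egln3 stood at 83.5 and 82.9 against 13.1 and 24.5 CPM in all members (2.09, SE 0.299, adjusted p = 0.00661). Its Prg4-low levels were 35.6 and 36.7 CPM in mutants and 0 in both controls, at least 4.44-fold higher than the control level that 3 counts in each library allow. Both genes thus had each mutant above each control, as 24.4% of all genes tested in all members and 23.6% in the Prg4-low portion did. Free RNA held Egln3 at 33.5 and 42.7 CPM in mutants and 5.32 and 2.68 CPM in controls.

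Other genes of the HIF list followed. Bnip3, which marks mitochondria for removal, stood at 274 and 339 CPM against 61.3 and 90.9 CPM (2.01, SE 0.233, adjusted p = 0.00331; Prg4-low 2.63), and its relative Bnip3l at 252 and 255 against 96.3 and 103 CPM (1.37, SE 0.184, adjusted p = 0.00533; Prg4-low 1.79). Vegfa stood at 179 and 205 CPM in mutants and 96.3 and 80.8 CPM in controls (1.16, SE 0.198, adjusted p = 0.0156), and at 268 and 317 against 108 and 93.0 CPM in the Prg4-low portion (1.61, SE 0.208, adjusted p = 0.00153). The secreted vasodilator peptide Adm was at 43.6 and 47.4 CPM in Prg4-low mutant cells and at 0 in both controls, at least 5.59-fold higher. Ndrg1, a hypoxia-regulated gene, rose in the Prg4-low portion (76.0 and 93.3 against 2.77 and 10.6 CPM, 3.66, SE 0.485, adjusted p = 0.00178) and did not pass in all members (1.07, SE 0.267, adjusted p = 0.0582), where Prg4-high cells held it at 145 and 134 against 138 and 103 CPM. Hif1a (0.16, adjusted p = 0.682) and Epas1 (1.09, adjusted p = 0.0813), which encode the oxygen-regulated subunits, did not pass. Car12, a carbonic anhydrase listed as a target and tested through its control counts alone, went the other way, at 14.9 and 38.0 against 276 and 160 CPM (-2.97, SE 0.385, adjusted p = 0.00454). Its Prg4-low change was -2.54 (adjusted p = 0.00139).

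Glycolysis genes were higher as well. Of 14 tested genes 12 rose in all members (median 1.04) and 13 in the Prg4-low portion (median 1.82), with none falling. There Slc16a3 reached 20% of cells in the mutants alone, and 12 of the other 13 rose. Without mutant replicate 1 none passed in that portion, at a median of 1.85. Pgk1, phosphoglycerate kinase, stood at 480 and 496 CPM in mutants against 164 and 229 CPM (1.33, SE 0.2, adjusted p = 0.00829), and at 625 and 697 against 116 and 128 CPM in the Prg4-low portion (2.50, SE 0.187, adjusted p = 0.000157). Slc16a3, which exports lactate, stood at 94.2 and 91.4 against 24.1 and 28.9 CPM (1.81, SE 0.248, adjusted p = 0.00572), and at 90.5 and 118 against 5.54 and 5.32 CPM in the Prg4-low portion (4.27, SE 0.446, adjusted p = 0.000736). Ldha, lactate dehydrogenase, rose by 1.04 (SE 0.153, adjusted p = 0.00731) and Pgam1, a mutase of lower glycolysis, by 1.27 (SE 0.168, adjusted p = 0.00483), with each mutant above each control. After thinning, 11 of 15 tested HIF-linked genes rose and 2 fell (median 1.76), and 13 of 14 glycolysis genes rose (median 1.5), in a fit where 14.8% of 2633 genes passed upward and 12.6% downward.

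**Figure D4:**
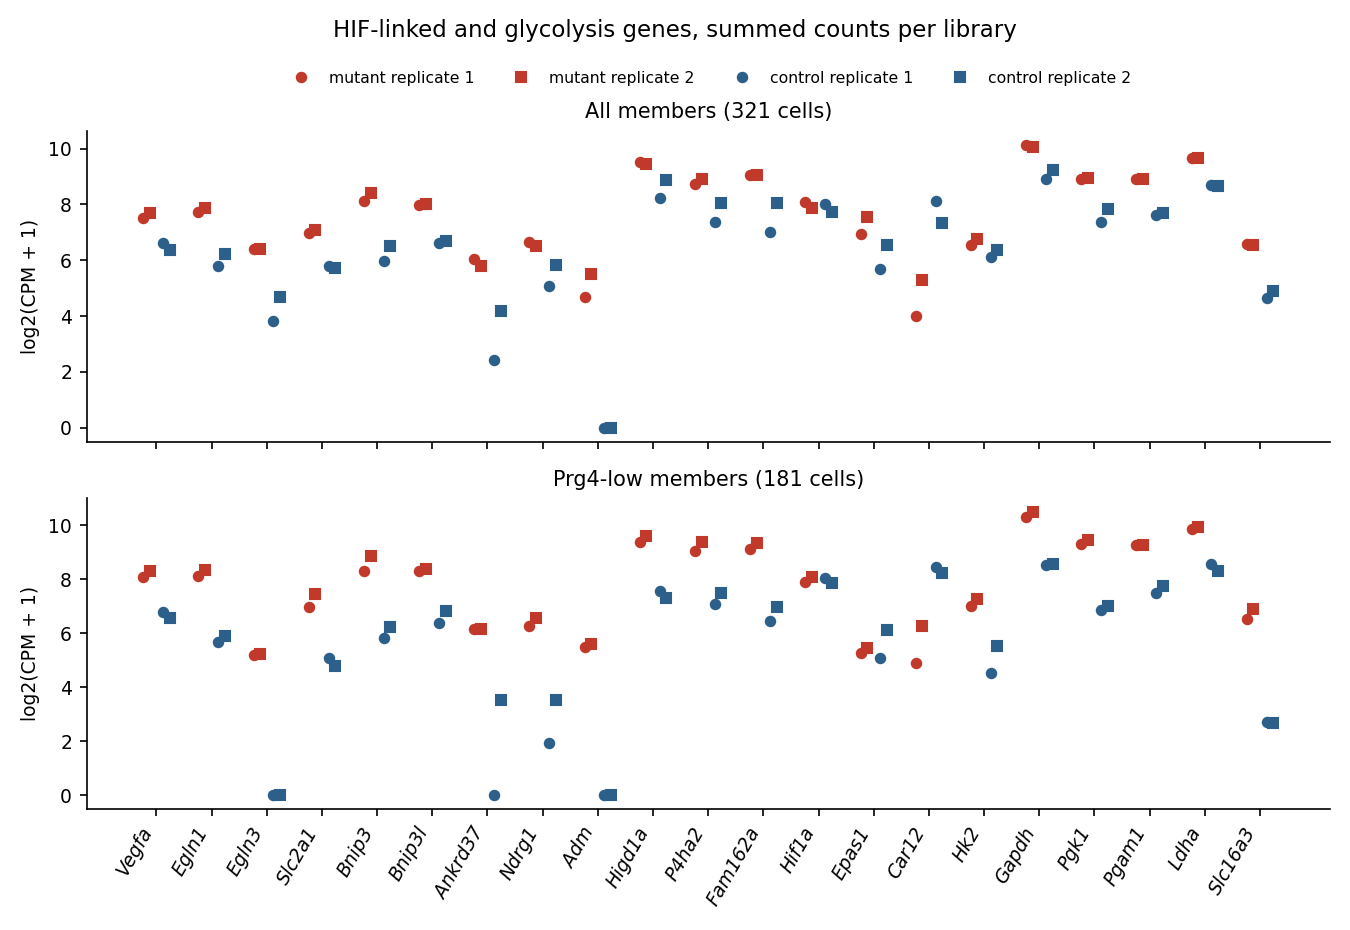
Levels of HIF-linked and glycolysis genes as log2(CPM + 1) on the y axis, one point per library (red mutants, blue controls, circles replicate 1, squares replicate 2), over all members (top) and Prg4-low members (bottom). For Egln1, Bnip3, Pgk1 and Slc16a3 both mutants lie above both controls, Hif1a overlaps, Car12 lies below, and Adm is at 0 in the controls.

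None of the 20 tested immediate early and heat shock genes passed in all members by edgeR (median 0.49), and DESeq2 called 1. In late cells 16 of 20 rose and 4 fell (median 1.06), where 1867 of 7130 genes rose and 1819 fell. In pre-hypertrophic cells, described below, 15 of 21 rose and 4 fell (median 0.75), where 1603 of 7417 genes rose and 1358 fell. In Prg4-low members 10 rose, Fos, Fosb, Jun, Junb, Jund, Egr1, Atf3, Ier3, Klf6 and Btg2, and the heat shock genes Hspa1b and Hspb1 fell (median 1.16). Fos stood there at 3644 and 3436 CPM in mutants and 811 and 1648 CPM in controls (1.58, SE 0.277, adjusted p = 0.00674), and Egr1 at 1144 and 1002 against 365 and 579 CPM (1.24, SE 0.222, adjusted p = 0.00731). Hspb1 stood at 42.8 and 54.8 against 99.7 and 106 CPM (-1.01, SE 0.273, adjusted p = 0.0468). Without mutant replicate 1 none of the 12 passed, at a median of 1.07. In all members 13 of 20 rose and 1 fell when control replicate 2 was left out, where 5.2% of all genes passed upward and 3.94% downward.

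Signaling lists gave few calls. Of 11 tested YAP1/TAZ targets Dlc1 rose (462 and 542 against 140 and 255 CPM, 1.35, SE 0.259, adjusted p = 0.0236), and in the Prg4-low portion Ccn2, which encodes a matrix signaling protein, rose as well (1878 and 2073 against 814 and 545 CPM, 1.61, SE 0.183, adjusted p = 0.00102). Of 9 Wnt genes the antagonist Frzb rose (246 and 318 against 173 and 128 CPM, 0.95, SE 0.214, adjusted p = 0.0402) and the ligand Wnt5b fell (131 and 82.9 against 405 and 323 CPM, -1.73, SE 0.247, adjusted p = 0.00661). The Frzb call was lost without mutant replicate 2 (adjusted p = 0.225), without control replicate 2 (0.0509), with DESeq2 (0.0952), with the stricter cell filter (0.0585) and with a Col10a1 limit of 40 (0.52, adjusted p = 0.388). In the Prg4-low portion Frzb (0.99, adjusted p = 0.0398) and the coreceptor Lrp5 (2.82, adjusted p = 0.0216) rose and Wnt5b fell (-1.41, adjusted p = 0.0056), of 11 tested. Lrp5 reached 20% of cells there in the mutants alone, so its call is not independent of that filter. None of 20 BMP and TGF-beta genes passed in all members, and in the Prg4-low portion 4 of 19 rose: Bmp2, Id2, Smad7 and Ltbp3 (0.82 to 1.18). No gene passed among 8 FGF, 4 prostaglandin, 19 unfolded protein response, 16 apoptosis, autophagy and senescence genes, or the 1 tested RANKL gene. In the Prg4-low portion Mcl1, Cdkn1a and Gadd45b of the apoptosis and senescence list rose, as did Tnfrsf11b, which encodes the decoy receptor osteoprotegerin.

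Few genes of matrix enzymes passed, some of them also in the Prg4-low portion. Of 15 tested proteases and inhibitors Ctsk and Serpine2 rose and Mmp16 fell, the last not without mutant replicate 2 (adjusted p = 0.0628) or control replicate 2 (adjusted p = 0.0599). Serpine2 (1.27, adjusted p = 0.0484) did not pass with cartilage genes required (0.52, adjusted p = 0.383), with the stricter cell filter (adjusted p = 0.0608) or with a Col10a1 limit of 40 (adjusted p = 0.0613), but passed in the Prg4-low portion (1.07, adjusted p = 0.05). There 2 of 15 rose and 2 fell, and 1 of the 2 that fell entered the test through the controls only. Over all members Mmp16 also entered through the controls only, so its fall is not independent of the detection filter. No gene of this list that passed the filter in both genotypes fell over all members. Ctsk, the osteoclast collagenase cathepsin K, stood at 64.5 and 105 CPM in mutant members but at 257 and 305 CPM in the mutant cells poor in cartilage genes and at 25.9 and 36.7 CPM in Prg4-low ones, where it did not pass (0.27, adjusted p = 0.738). Igfbp7, an insulin-like growth factor binding protein and 1 of 9 tested IGF genes, rose over all members (2.16, SE 0.263, adjusted p = 0.0037) and not in the Prg4-low portion (0.31, adjusted p = 0.638), with 12947 and 17252 CPM in mutant cells poor in cartilage genes. Of 22 collagen processing genes P4ha2 (1.1, adjusted p = 0.0300), a collagen prolyl hydroxylase, and Pcolce (1.01, adjusted p = 0.0311) rose and Bmp1 (-1.17, adjusted p = 0.0316), which trims procollagens, fell. Without mutant replicate 2 the adjusted p was 0.12 for Pcolce, and without control replicate 1 it was 0.0618 for Pcolce and 0.074 for Bmp1. DESeq2 called neither (adjusted p = 0.149 and 0.061), and with a Col10a1 limit of 40 it was 0.0584 for Pcolce. In the Prg4-low portion P4ha2 rose by 2.00 (adjusted p = 0.000736) and Bmp1 fell (-1.41, adjusted p = 0.00673), and of 21 tested 3 rose and Bmp1 alone fell. Pcolce changed sign once cartilage genes were required (-0.30, adjusted p = 0.616). Of 12 osteoblast lineage genes Omd, osteomodulin, rose (521 and 773 against 352 and 271 CPM, 1.09, SE 0.220, adjusted p = 0.0276, and 1.81 in the Prg4-low portion) and Runx2, Sp7 and Bglap2 fell. The Omd call was lost without mutant replicate 2 (adjusted p = 0.175), without called doublets (0.0526) and with a Col10a1 limit of 40 (0.62, adjusted p = 0.393). Of 4 cell cycle genes the tubulin Tubb5 rose (1.58, adjusted p = 0.0148).

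Markers of other cells were mostly too low to test. None of the endothelial (8), hematopoietic (10) and smooth muscle and pericyte (6) markers passed the filter, and the endothelial list summed to 15.7 and 21.7 CPM in mutants and 2.19 and 10.1 CPM in controls. Pdgfrb, a mural gene outside that list, was tested and rose (145 and 215 against 17.5 and 15.9 CPM, 3.46, SE 0.309, adjusted p = 0.00112), with 760 and 844 CPM in mutant cells poor in cartilage genes and 21.0 and 16.8 CPM in Prg4-low ones. All 4 tested genes of the erythroid list, globins, rose, its sum being 673 and 648 against 175 and 172 CPM, and free RNA differed the same way, with Hba-a1 at 9198 and 9047 CPM in mutants and 2731 and 2806 CPM in controls. Of the other lists, 1 of 3 osteoblast (Bglap2) and 4 of 6 resting and columnar chondrocyte markers (Chil1, Epyc, Prkg2, Col9a1) fell, and 1 of 2 fibroblast (S100a4) and the 1 tested osteoclast marker (Ctsk) rose. None of 2 marrow stromal and 2 superficial chondrocyte markers passed.

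Several of the genes with the largest rises over all members had their highest levels in the cells poor in cartilage genes. Col4a1, a chain of type IV collagen, stood at 504 and 884 CPM in mutant members and 8.75 and 5.77 CPM in controls (6.63, SE 0.408, adjusted p = 0.000154), but at 2985 and 3456 CPM in the mutant cells poor in cartilage genes and at 12.9 and 116 CPM in Prg4-low ones. Col4a2 (5.13), Lpl, lipoprotein lipase (4.88), and Lama2, a laminin chain (4.37), followed that pattern. Tmem119 was at 28.9 and 60.4 CPM against 0 in both controls, at least 8.20-fold higher, and was tested through its mutant counts alone. For genes with 1 to 3 control UMIs the ratio of counts with its exact counting interval was 214 (38.3-8480) for Col18a1, 29.3 (9.87-143) for S1pr3, 22.8 (6.14-191) for C1qtnf5, 21.3 (7.14-105) for Lamb1 and 19.2 (6.41-94.1) for Tinagl1. These genes were likewise tested through their mutant counts alone. Tinagl1 was not particular to the cells poor in cartilage genes, with 40.4 and 61.2 CPM in Prg4-low mutant cells against 0 and 2.66 CPM in controls. Mfrp shares its annotated end with C1qtnf5 and its counts (15.2, 5.04-74.8) cannot be told apart from it. Rps3a3, a processed pseudogene at chr13:108807137-108807931 with near-identical ribosomal copies, was at 515 and 657 against 2.72 and 4.64 CPM and differed in free RNA too (442 and 430 against 36.5 and 35.8 CPM), so its value is uncertain.

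The lower genes of all members mostly sat in the Prg4-low portion. Of those named here, Parm1, Rspo3 and Slc2a5 had too few mutant UMIs over all members to pass the detection filter in mutants. They were tested there through their control counts alone, so their calls are not independent of that filter. Parm1, a membrane mucin, stood at 4.96 and 3.87 CPM in mutants and 59.1 and 26 CPM in controls (-3.10, SE 0.504, adjusted p = 0.012; Prg4-low -2.61, adjusted p = 0.0045). Rspo3, an enhancer of Wnt signaling, stood at 25.6 and 8.52 against 109 and 69.3 CPM (-2.32, SE 0.430, adjusted p = 0.0208). Slc2a5, a fructose transporter, stood at 4.96 and 15.5 against 63.4 and 41.9 CPM (-2.25, SE 0.441, adjusted p = 0.0249, and 0.058 without control replicate 1). Each of these also had both mutants below both controls in the Prg4-low portion, as 29.9% of the 5662 genes tested there did, and the naming rule had required it over all members. The same held for Nrgn (-1.97), Ttc39c (-1.95, with adjusted p = 0.0682 without mutant replicate 2 and 0.0616 without control replicate 2), R3hdml (-1.83) and Epyc (-1.83), a small leucine-rich proteoglycan of cartilage. Chil1, a chitinase-like protein, was instead carried by the Prg4-high cells, at 56.0 and 39.5 CPM in mutants and 380 and 287 CPM in controls, and over all members stood at 26.4 and 27.1 against 89.7 and 143 CPM (-2.11, SE 0.276, adjusted p = 0.00475). It changed sign with a Col10a1 limit of 40 per 10000 (0.17, adjusted p = 0.854).

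Within the Prg4-low portion, a comparison added after the data were seen, the largest rises beside Adm and Egln3 were of genes with few control UMIs. H2-Ab1, a chain of MHC class II, stood at 244 and 138 CPM in mutants and 5.54 and 2.66 CPM in controls, a ratio of 46.5 (15.7-227). Mgarp, a mitochondrial gene responsive to hypoxia, had a ratio of 31.9 (5.49-1281), Tinagl1 37.7 (6.53-1510), Tgif1 22.0 (3.72-892) and Vldlr, a lipoprotein receptor, 21.4 (5.73-180). Ackr3, a chemokine scavenger receptor, stood at 155 and 165 against 11.1 and 2.66 CPM (4.58, SE 0.412, adjusted p = 0.00035), but Prg4-high cells held 176 and 146 against 288 and 236 CPM. The stress transcription factor Atf5 stood at 141 and 252 against 0 and 18.6 CPM (4.40, SE 0.607, adjusted p = 0.00217). Cebpb stood at 98.6 and 199 against 13.8 and 2.66 CPM (4.22, SE 0.574, adjusted p = 0.00198). All these rising genes had too few control UMIs to pass the detection filter in controls. They were tested through their mutant counts alone, so their calls are not independent of that filter. Downward, Svep1 stood at 14.5 and 4.59 against 69.2 and 69.1 CPM (-2.77, SE 0.446, adjusted p = 0.00456). Mmp16, a membrane metalloproteinase, stood at 19.4 and 6.12 against 63.7 and 82.4 CPM (-2.45, SE 0.455, adjusted p = 0.00883). Svep1 and Mmp16 were tested through their control counts alone, so their falls are not independent of the detection filter either. Alkbh8 (-2.65), Tmem260 (-2.33), Rita1 (-2.33), Tmem132b (-2.27), Borcs5 (-2.25) and Slc35g1 (-2.06) fell from lower levels, between 20.8 and 72.0 CPM in the controls. All of these calls were lost without mutant replicate 1, the 816 genes at an unadjusted p under 0.05 being the count then.

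The genotype effect was then compared with that in the 1370 late cells (573 and 565 in mutants, 119 and 113 in controls), which share the libraries. An effect is called larger where the log2 fold change of mutant over control was higher in members and smaller where it was lower. Over all members it was larger for 151 of 7375 genes (2.05%) and smaller for 146 (1.98%), 297 in all, against 106 and 104 without mutant replicate 1 or 2. With both classes limited to Prg4-low cartilage cells (92.9% of late mutant and 97.9% of late control cells), these were 28 of 7308 (0.383%) and 4 (0.0547%). The 4 smaller effects were of Hspb1, H2-D1, Cox4i2 and Mmp13, named after their values were seen.

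Ibsp, bone sialoprotein, was among the genes with a larger effect. In late cells it stood at 5695 and 6567 CPM in mutants and 17478 and 14009 CPM in controls, and in Prg4-low members at 15322 and 11997 against 7663 and 11173 CPM. It was thus lower in late mutant cells and not lower in members, a difference of effects of 1.92 in the Prg4-low cells (SE 0.275, adjusted p = 0.0172) and 1.52 over all (SE 0.193, adjusted p = 0.00204). Sparc, osteonectin of bone matrix, stood at 9922 and 9262 against 26323 and 29252 CPM in late cells and at 24129 and 20888 against 26211 and 35141 CPM in Prg4-low members, a difference of 1.11 (SE 0.131, adjusted p = 0.0159). Mmp13, the collagenase of terminal hypertrophic cells, went the other way, at 641 and 691 against 558 and 353 CPM in late cells and 270 and 280 against 800 and 332 CPM in Prg4-low members (-1.41, SE 0.2, adjusted p = 0.0172). Alpl fell in both classes, less in Prg4-low members (difference 0.88, SE 0.142, adjusted p = 0.0278). Enpp1 (1.11) and Ank (1.30), which supply pyrophosphate, Chad (1.19), a cartilage matrix protein, and Clu (1.80), a chaperone, also had a higher log2 fold change in Prg4-low members than in late cells. Within Prg4-low members Clu rose (2.46, edgeR adjusted p = 0.000736). Ank (0.81, adjusted p = 0.0689), Enpp1 (-0.21, adjusted p = 0.577) and Chad (-0.53, adjusted p = 0.0721) did not pass there. Late cells differed in quality as well, with medians of 0.528% and 0.647% mitochondrial UMIs in mutants and 4.13% and 4.22% in controls, and the part of that difference was not tested.

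For Slc38a4 the marker fell in members and not in late cells (116 and 113 against 113 and 117 CPM, 0.04, SE 0.0897, adjusted p = 0.707). The difference of effects was -1.55 over all members (SE 0.285, adjusted p = 0.0126) and -1.14 between Prg4-low cells (SE 0.284, adjusted p = 0.146), so it did not pass there. For F13a1 the difference was 0.09 (SE 0.212, adjusted p = 0.873). The effect was smaller over all members than in late cells for the HIF-linked genes Bnip3 (-1.77, adjusted p = 0.00316) and Egln1 (-1.42, adjusted p = 0.0117) and the glycolysis genes Pgk1 (-2.01, adjusted p = 0.000925) and Slc16a3 (-3.30, adjusted p = 0.00131). Between Prg4-low cells the same differences were -1.10 (SE 0.311), -0.67 (SE 0.292), -0.80 (SE 0.207) and -0.78 (SE 0.764), and none passed.

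**Figure D5:**
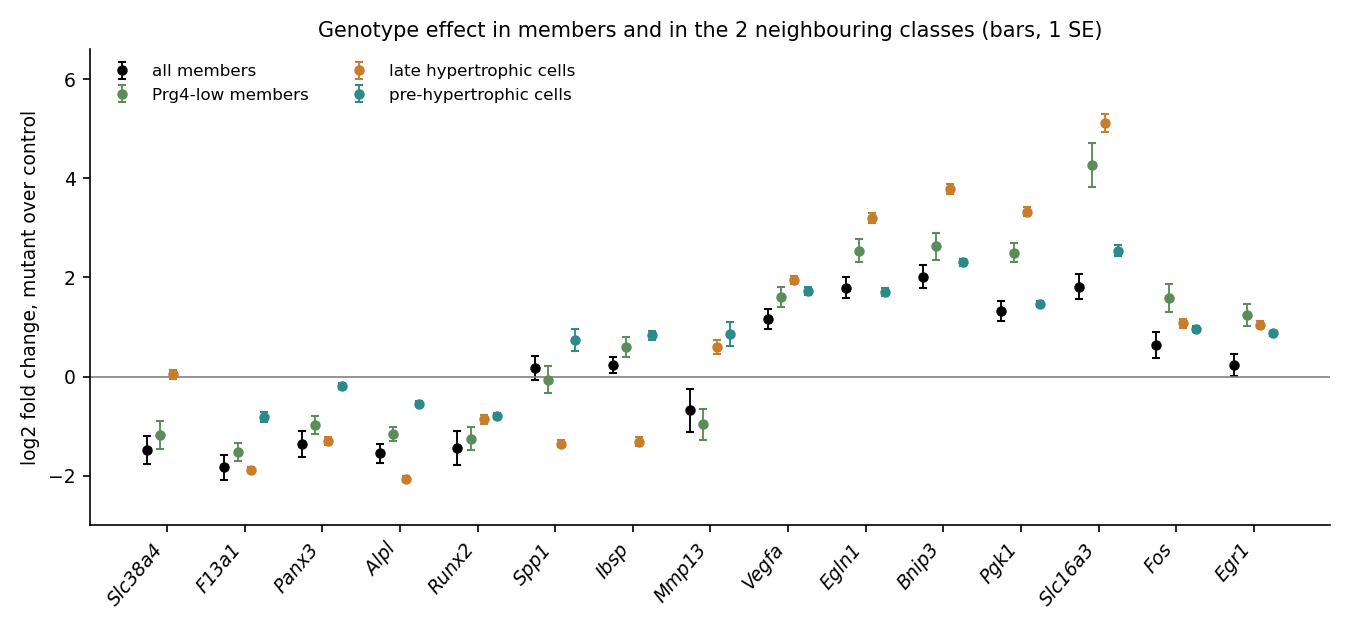
Log2 fold change of mutant over control (y axis, bars 1 SE of the edgeR fit) for selected genes in all members (black), Prg4-low members (green), late hypertrophic cells (orange) and pre-hypertrophic cells (teal; Slc38a4 was not tested there). Ibsp lies below 0 in late cells and above 0 in the other sets, F13a1, Alpl and Runx2 lie below 0 in all 4 sets, and Egln1, Bnip3, Pgk1 and Slc16a3 lie above 0 in all 4.

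The other neighbour was the 1796 pre-hypertrophic cells (426, 450, 463 and 457), with Col10a1 under 20 UMIs per 10000 and at least 2 UMIs of Ihh and Panx3. Over all members the effect was larger for 54 of 7606 genes (0.71%) and smaller for 42 (0.552%), 96 in all, against 30 without mutant replicate 2, 204 without control replicate 1 and 170 without control replicate 2. Between Prg4-low cells these were 2 of 7597 (0.0263%) and 3 (0.0395%). The 2 larger were Mif, a cytokine that late and pre-hypertrophic mutant cells also carried at higher levels, and Pcdh9, a protocadherin. Mif stood at 1066 and 1280 against 155 and 162 CPM in Prg4-low members and at 765 and 752 against 271 and 265 CPM in pre-hypertrophic cells, a difference of 1.35 (SE 0.18, adjusted p = 0.0323). The 3 smaller were Col10a1, which set the classes and is no finding, Col5a2 (-1.79, SE 0.221, adjusted p = 0.0264), a fibril collagen, and Omd (-1.62, SE 0.229, adjusted p = 0.0455), which rose in pre-hypertrophic cells from 86.7 and 81.3 to 685 and 707 CPM. These 5 were named after their values were seen.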

How the data were processed

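Single-cell RNA-seq libraries (10x Genomics 3' chemistry) of 2 Lats2iECKO and 2 control samples were analysed. Per the labels and the study's methods, the authors trimmed reads with cutadapt 3.5 and aligned them with STARsolo 2.7.10a to GRCm39 with GENCODE M26 and transgene sequences, and they deposited estimated counts of UMIs, in which an expectation-maximization step splits reads shared between genes, so that 9.09% to 9.95% of entries were not whole. Near-identical copies and overlapping genes are therefore uncertain.

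Counts of the members of a library were summed, rounded and compared between genotypes with edgeR 4.0.16 (quasi-likelihood test, TMM; R 4.3.3) after filterByExpr and a filter for a count in at least 20% of cells of either genotype, with Benjamini-Hochberg adjustment. Differences of effects between classes were tested as an interaction with the library as a block. Calls needed an adjusted p of at most 0.05 and an absolute log2 fold change of at least 1, gene lists the adjusted p alone. Alternatives included DESeq2 1.42.0. The tests were tested on simulated data. CPM is per 1000000 UMIs of the class in a library. Doublets were scored with scrublet in scanpy 1.11.5 (0.8% per 1000 barcodes) and kept. A lower bound of a fold used 3 counts in each control library. Promoter letters came from GRCm39 with GENCODE M39.

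The members and lists were chosen with earlier results of these data known. The 3 portions, and every Prg4-low result, were added after the data were seen. The study describes the 2 libraries of a genotype as biological replicates, the number of animals in each is not given in the sources used here, and p-values measure the spread between libraries. Genes were named by a rule: Lats2, Lats1 and the markers, the 12 called genes with the largest change in each direction whose libraries separated the genotypes, up to 4 past the threshold in each list and members named for their role, and the 6 largest differences of effect in each direction. The genes of the rule, predicted genes (10 in all members, 30 in the Prg4-low portion) and sex-linked genes (7 and 9) were left out, and a few other genes that the rule names are not reported here.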

Additional observations from a re-analysis of the deposited data

Results flagged for a closer look

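The genotype effect of 297 genes differed between all members and late cells, and that of 96 between all members and pre-hypertrophic cells, by the interaction test in edgeR with an adjusted p no higher than 0.05 and a difference of 1 or more on the log2 scale. Up to 6 genes with the largest difference in each direction are given with that difference, members minus the other class.

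Against late cells the genotype effect was higher in members for Col4a1 (5.43), S1pr3 (4.91), Adamts12 (4.76), Adamts2 (4.73), Lpl (4.67) and Rnf150 (4.36), with adjusted p between 0.000563 and 0.019. It was lower for Nrn1 (-6.05), Tesc (-5.24), Sema3e (-5.07), Npr3 (-4.35), Tafa5 (-4.30) and Creb5 (-4.13), with adjusted p between 0.000106 and 0.0361. With both classes limited to Prg4-low cartilage cells, none of the 6 of these genes still tested passed: Adamts12 stood at 2.82 (adjusted p = 0.0951), Rnf150 at 4.26 (0.284), Nrn1 at -4.89 (0.327), Npr3 at -2.34 (0.722), Tafa5 at -3.16 (0.219) and Creb5 at -0.86 (0.738).

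Against pre-hypertrophic cells the effect was higher in members for Col18a1 (6.69), Col4a1 (5.65), Lpl (4.92) and Adamts2 (4.85), with adjusted p between 0.000139 and 0.00822. The fitted values of genes near 0 in a group depend on the prior count and are not bounds. Tmem119, at 0 in both control libraries of the members, also passed, and its fitted difference is not given for that reason. The effect was lower for Mt2 (-4.05), Rcan1 (-3.23), Parm1 (-3.07), Chil1 (-2.54), Dusp8 (-2.33) and Adamts5 (-2.33), with adjusted p between 0.000392 and 0.0401. Between Prg4-low cells Mt2 (-1.54, adjusted p = 0.471), Rcan1 (-0.68, 0.784), Parm1 (-2.46, 0.123), Chil1 (-0.42, 0.873), Dusp8 (-0.95, 0.789) and Adamts5 (-1.60, 0.448) did not pass. Nor did Tmem119 (adjusted p = 0.481), and Col18a1, Col4a1, Lpl and Adamts2 were not tested there.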

How the results depend on the processing

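Of 908 alternatives run for 60 named genes, 852 kept the direction and the side of the threshold, 48 lost the call, 4 gained it (Ihh, at 0.996 without control replicate 1, and 3 of Col10a1, the gene of the rule, which are no findings) and 4 turned the direction: Ihh without control replicate 2 (-0.021) and after thinning (-0.059), Chil1 with a Col10a1 limit of 40 (0.17) and Pcolce with cartilage genes required (-0.30). Alternatives that gave no test for a gene are not among the 908. Most of these fell on thinning, the Prg4-low portion and the requirement for cartilage genes. Of the 60 genes, 38 stayed the same after thinning, 45 in the Prg4-low portion and 45 with cartilage genes required. The mutant-minus-control difference in the share of members among cells (1.37 percentage points) was 0.759 with a Col10a1 limit of 40, 2.10 after thinning and 0.712 for Prg4-low cells, and that among Col10a1-high cells (-12.1) was -44.0 after thinning. Of the 145 higher and 101 lower genes there were 90 higher with DESeq2, 525 and 203 without the filter on low counts, 87 higher with cartilage genes required, 236 higher in Prg4-low cells, and 120 to 244 and 71 to 173 with each library left out in turn. The 297 differences from late cells became 538 without the filter, 155 with cartilage genes required, 32 in Prg4-low cells and 104 to 374 with a library left out, and the 96 from pre-hypertrophic cells became 380, 13, 5 and 30 to 204. In Prg4-low cells the 236 higher and 129 lower genes became 130 and 68 with DESeq2, 461 higher without the filter, and 0 to 357 and 0 to 169 with a library left out. Leaving out a library leaves 1 arm with a lone sample that is assumed to vary like the other group. Deviations of same-numbered libraries had a correlation of -0.0163 over 6230 genes in all members. With 2 libraries a genotype this cannot tell whether replicate numbers mark a shared batch. A replicate block gave 93 higher and 62 lower genes in all members and 313 and 203 in Prg4-low cells. The cause of these changes was not tested. With 94 control members, 5 of them poor in cartilage genes, low genes are limited by depth.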
